A study of Mus musculus with 8 samples.

Results

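The formyl peptide receptors Fpr1 and Fpr2 and the related ligand genes Saa3 and Anxa1 were followed through RNA-seq libraries of F4/80-enriched cells from mouse inguinal fat pads. These 4 genes, of 56748 rows in the count table, were chosen by name with their levels and fold changes in the comparison of Aldara with Vehicle already known. Their values in that comparison are therefore given as a description, with no test.

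All mice were wild-type (WT) females, and the labels state no age. The Aldara group received 62.5 mg of cream with 5% imiquimod, a Toll-like receptor 7 agonist, on shaved back skin on 3 consecutive days. The Vehicle group received an equivalent volume of Boots Aqueous Cream/10% Vaseline Lanette Cream in the same way. Fat pads were collected 24 h after the final dose. Each group holds 4 libraries, and each library pooled magnetically selected cells of 6 fat pads, about 30000 cells, from preparations with over 90% of cells positive for F4/80 and CD64. Whether the pools of different libraries shared mice is not given, and the p-values below describe only the variation among these pools, which may be technical.

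Formyl peptide receptors are Gi-coupled receptors of phagocytes. They sense peptides that begin with formylmethionine, which bacteria and damaged mitochondria release, and they drive directed migration and the release of oxidants. Fpr2 also responds to host proteins, among them serum amyloid A proteins and annexin A1. Saa3 is an acute-phase serum amyloid A protein made outside the liver, and Anxa1 encodes annexin A1, a phospholipid-binding protein whose N-terminal peptides act on these receptors.

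Vehicle libraries held 21874780 to 34471508 assigned reads and Aldara libraries 19537607 to 24340674. Levels are given in CPM, the usual depth-scaled read count, with library sizes adjusted by the trimmed mean of M-values (TMM). Adjusted p-values are those of edgeR's quasi-likelihood test, corrected by Benjamini-Hochberg across the 16780 genes tested. The gene of the sorted antigen, Adgre1 (F4/80), rose from 82.4 ± 20.4 to 966 ± 476 CPM (SD, n = 4 each, log2 fold change 3.55, adjusted p = 0.0021). For Csf1r, which encodes the CSF1 receptor of macrophages, the means were 273 ± 70.3 CPM in Vehicle and 542 ± 211 CPM in Aldara. Its adjusted p was 0.0648, became 0.00114 when the replicate number entered as a block, and was 0.0169 without Aldara replicate 1. Fcgr1, which encodes CD64, measured 19.7 ± 1.84 and 26.5 ± 12.3 CPM (adjusted p = 0.436). Epithelial transcripts were abundant in both groups, with Krt8, a keratin of simple epithelia, at 4138 ± 934 and 4169 ± 586 CPM and Epcam, an epithelial adhesion molecule, at 1474 ± 45.1 and 1386 ± 100 CPM. Of 12 epithelial markers tested, 0 rose and 1 fell, beside 6.98% and 3.86% of all genes. With the replicate block 1 rose and 3 fell, beside 9.21% and 6.14% of all genes. In such mixed samples, fewer cells of a type and less RNA per cell cannot be told apart.

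Fpr1 (ENSMUSG00000045551), the high-affinity receptor for bacterial formyl peptides, was near its detection limit in Vehicle. It measured 0.234, 0.274, 0.31 and 0.16 CPM in Vehicle replicates 1 to 4, from 5 to 11 counts per library. In Aldara replicates 1 to 4 it measured 9, 12.9, 31 and 26.3 CPM, from 211 to 753 counts. The lowest Aldara library lay far above the highest Vehicle library, and replicates 3 and 4 were the high ones within Aldara. The means were 0.245 ± 0.0642 and 19.8 ± 10.5 CPM, a log2 fold change of 6.3 (SE 0.52).

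Fpr2 (ENSMUSG00000052270), the receptor with the broader range of host ligands, measured 0.983, 0.411, 0.536 and 0.641 CPM in Vehicle replicates 1 to 4. In Aldara replicates 1 to 4 it measured 6.44, 8.56, 21.1 and 18.2 CPM. The groups did not overlap, and the order of the Aldara libraries was that of Fpr1. The means were 0.643 ± 0.246 and 13.6 ± 7.19 CPM, a log2 fold change of 4.41 (SE 0.46).

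Saa3 (ENSMUSG00000040026) measured 0.14, 0.684, 0.62 and 0.257 CPM in Vehicle replicates 1 to 4, from 3 to 22 counts per library. In Aldara replicates 1 to 4 it measured 46.2, 29.6, 104 and 32 CPM. Every Aldara library was above every Vehicle library, and replicate 3 stood highest, with replicate 1 next. The means were 0.426 ± 0.268 and 53 ± 34.9 CPM, a log2 fold change of 6.92 (SE 0.59).

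Anxa1 (ENSMUSG00000024659) was abundant in all 8 libraries. It measured 973, 754, 632 and 713 CPM in Vehicle replicates 1 to 4 and 793, 614, 584 and 811 CPM in Aldara replicates 1 to 4. The groups overlapped, and the highest level was that of Vehicle replicate 1. The means were 768 ± 146 and 701 ± 118 CPM, a log2 fold change of -0.13 (SE 0.16).

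**Figure D1:**
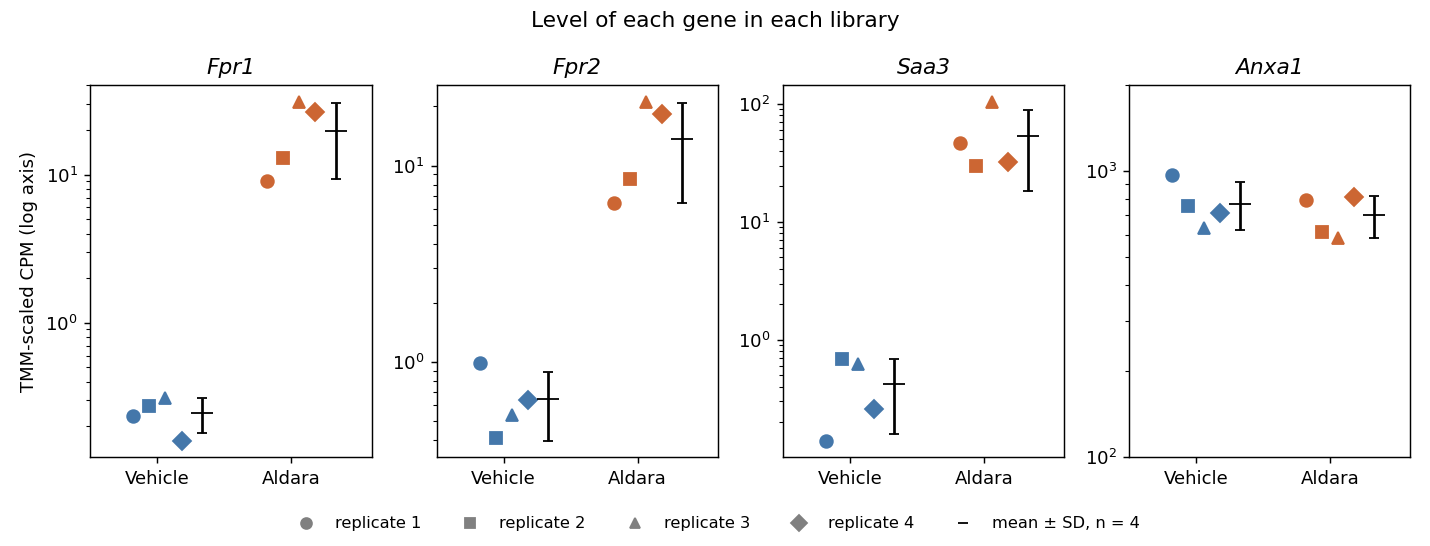
Level of Fpr1, Fpr2, Saa3 and Anxa1 in each library, in TMM-scaled CPM on log axes that differ between panels, with marker shapes for replicates and black bars for the mean ± SD of 4 libraries. The Aldara libraries lie between 9 and 31 CPM for Fpr1 and above all Vehicle libraries for Fpr1, Fpr2 and Saa3, whereas the groups overlap for Anxa1.

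All 4 genes passed the filter on low counts. That filter asks for about 0.423 CPM, which 0 of 4 Vehicle libraries reached for Fpr1, 3 for Fpr2 and 2 for Saa3, so these 3 genes passed it through their Aldara libraries. Ranked by log2 fold change from the highest of 16780 tested genes, Saa3 stood at place 5, Fpr1 at 6, Fpr2 at 14 and Anxa1 at 11514. Of all tested genes, 9.97% had 4 Aldara libraries above 4 Vehicle libraries. Nothing is read from this share, since these genes were chosen from the same comparison.

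Compared per length, the order of the levels changed between the groups for the receptors. In CPM per kilobase of merged exons, Vehicle means were 264 for Anxa1, 0.496 for Fpr2, 0.185 for Fpr1 and 0.163 for Saa3. In Aldara they were 241 for Anxa1, 20.3 for Saa3, 15 for Fpr1 and 10.5 for Fpr2. Anxa1 was the most abundant per length in both groups, and the libraries of Fpr1 and Saa3 in Vehicle spread too widely to order these 2 genes. The place of Saa3 depends on its transcript model. Its merged exons span 2606 bases because a second coding model with a much longer second exon (Saa3-202) is included, whereas the spliced Saa3-201 transcript has 555 bases and gives 0.768 CPM per kilobase in Vehicle and 95.5 in Aldara. On transcript lengths the mean of Saa3 thus stood above Fpr2 (0.568) and Fpr1 (0.185) in Vehicle, where merged exons placed it lowest. Its Vehicle libraries, from 3 to 22 counts, spread too widely to order Saa3 and Fpr2 on transcript lengths. In Aldara the mean of Saa3 stood next to that of Anxa1 under either model. On merged exons this order of the means did not hold in every Aldara library.

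The balance between the receptors differed between the groups. Fpr1 made up 19.2%, 40%, 36.7% and 20% of the summed counts of Fpr1 and Fpr2 in Vehicle replicates 1 to 4. In Aldara replicates 1 to 4 its share was 58.3%, 60.2%, 59.4% and 59.1%. Fpr2 counts thus outnumbered Fpr1 counts in each Vehicle library, and Fpr1 counts outnumbered Fpr2 counts in each Aldara library. Over the group sums, 27 of the Vehicle counts were Fpr1 and 69 Fpr2, a share of 28.1% (95% exact Clopper-Pearson interval 19.4 to 38.2%). In Aldara the sums were 1784 and 1223, a share of 59.3% (57.5 to 61.1%). The intervals cover counting error only and leave out the variation between libraries. They are too narrow even for counting error where PCR copies of a molecule were counted more than once. This share does not depend on the scaling of libraries and also comes from the comparison that chose the genes, so it carries no test.

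**Figure D2:**
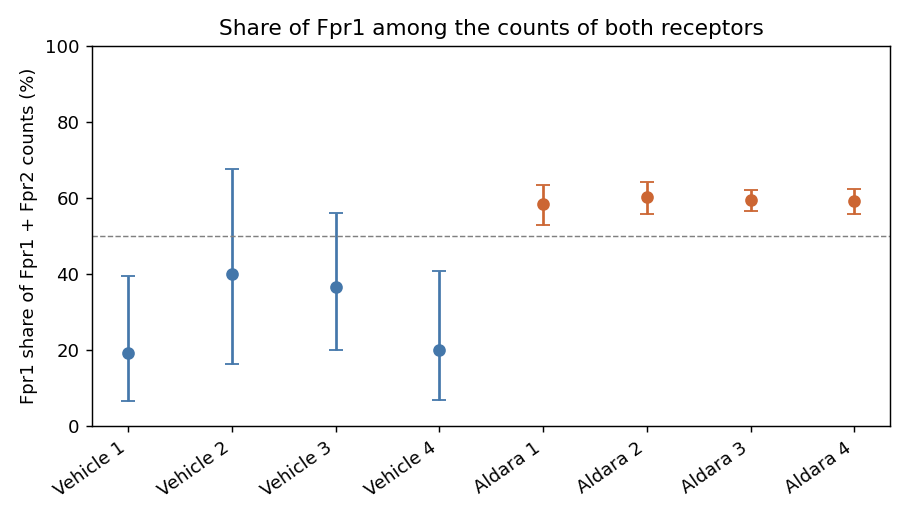
Share of Fpr1 among the summed Fpr1 and Fpr2 counts in each library, in percent, with 95% exact binomial intervals as bars and a dashed line at equal counts. The 4 Aldara libraries lie between 58.3% and 60.2%, and the 4 Vehicle libraries between 19.2% and 40% with wide intervals from few counts.

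Set against macrophage markers, both receptors varied less among the Aldara libraries but not among the Vehicle libraries, and Saa3 did so in Vehicle only. The geometric mean of 12 macrophage markers measured 95.4, 139, 182 and 138 CPM in Vehicle replicates 1 to 4 and 200, 278, 485 and 484 CPM in Aldara replicates 1 to 4. On the log2 scale the SD over the Aldara libraries was 0.84 for the level of Fpr1 and 0.23 for its ratio to this mean. For Fpr2 the SD was 0.83 for the level and 0.23 for the ratio. For Saa3 it was 0.83 for the level and 0.86 for the ratio, with the ratio highest in replicates 1 and 3 and lowest in replicate 4. Over the Vehicle libraries, where counts were few, the SD of the level and of the ratio was 0.41 and 0.46 for Fpr1, 0.53 and 0.85 for Fpr2, and 1.09 and 0.80 for Saa3. These are spreads over 4 libraries, and their difference was not tested.

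The receptors and Saa3 also differed between the groups by more than the mean of the macrophage markers did. The geometric mean of the markers was 1.32 higher on the log2 scale in Aldara. Relative to it, Fpr1 differed by 4.88, Fpr2 by 2.98 and Saa3 by 5.72 between the group means, all higher in Aldara. With Csf1r as the reference instead, the difference for Fpr1 was 5.27. The log2 fold changes of the 12 single markers ran from 0.42 to 3.55. The highest was that of Adgre1, the gene of the sorted antigen, beside 4.41 for Fpr2. For Fpr2 the size of the gap thus depends on the marker used. The part that a changed cell content has in these differences was not tested.

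**Figure D3:**
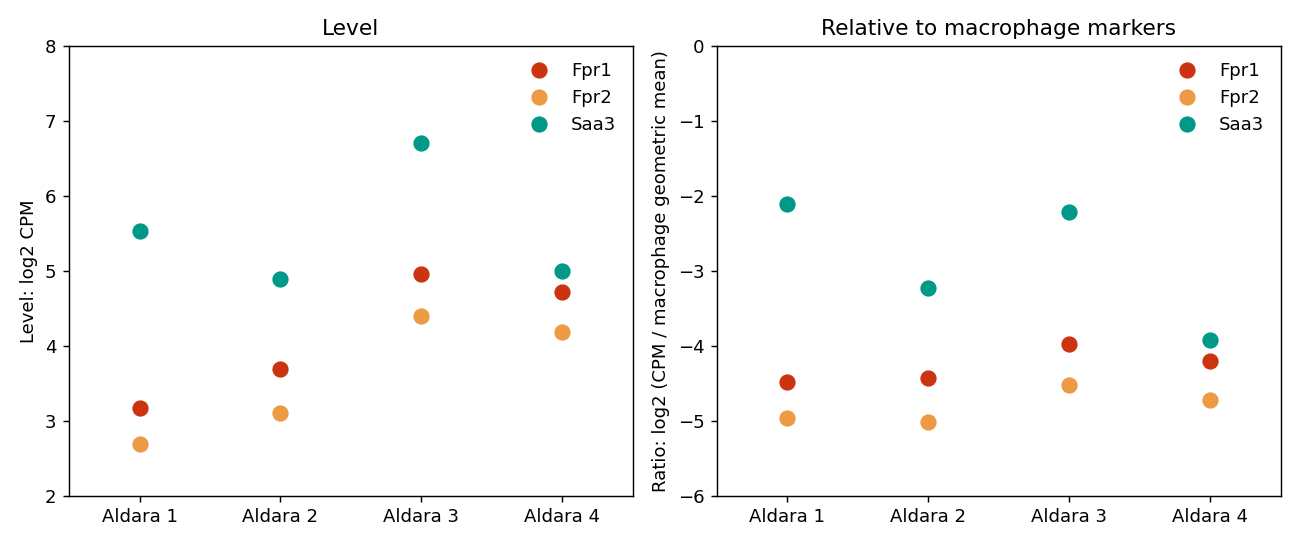
The 4 Aldara libraries for Fpr1, Fpr2 and Saa3, as log2 CPM on the left and as the log2 ratio of CPM to the geometric mean of 12 macrophage markers on the right. The receptors draw together across libraries in the ratio, with an SD of 0.23 each, and Saa3 does not, with an SD of 0.86.

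Anxa1 was also set against epithelial genes. Its log2 ratio to the geometric mean of 12 epithelial markers was 0.44 ± 0.15 in Vehicle and 0.45 ± 0.21 in Aldara (SD, n = 4 each), a difference of 0.01. This ratio was chosen after the values had been seen. The log2 fold changes of the 12 single epithelial markers ran from -1.12 to 0.39. The ratio of Anxa1 to the macrophage markers differed by -1.45 on the log2 scale, from 2.49 ± 0.64 to 1.04 ± 0.73. Which cell types the Anxa1 transcripts came from was not tested.

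Neutrophils carry formyl peptide receptors in abundance, so their markers were read beside these genes. Ly6g, the defining surface antigen of mouse neutrophils, had 0 counts in all 8 libraries, which allows between 0.0846 and 0.159 CPM per library at 3 counts. Cxcr2, the neutrophil chemokine receptor, had 2 counts over the Vehicle and 2 over the Aldara libraries. S100a8 and S100a9, the calprotectin subunits, measured 0.0924 ± 0.0294 and 0 CPM in the Vehicle group. Their Aldara means were 0.507 ± 0.0896 and 0.429 ± 0.362 CPM, below Fpr1 in every Aldara library. Only 3 of 15 neutrophil markers were abundant enough to test, and of all tested genes 6.98% rose and 3.86% fell, or 9.21% and 6.14% with the replicate block. Csf3r, the G-CSF receptor (log2 fold change 2.1, adjusted p = 0.00886), and Mmp9, a gelatinase that macrophages also make (1.29, adjusted p = 0.0205), rose, and Ltf, also a product of mammary epithelium, measured 356 ± 133 and 477 ± 112 CPM (adjusted p = 0.412). The summed level of the list was 227 to 531 CPM in Vehicle and 493 to 667 CPM in Aldara, most of it Ltf. Among 8 tested monocyte markers 0 rose and 2, Plac8 and Ms4a4c, fell in edgeR. At an unadjusted p under 0.05, 1 rose and 4 fell, a rule for which the share over all genes was not computed. In DESeq2 1 rose and 3 fell, where 1471 genes rose and 1154 fell in all. With the replicate block 1 rose and 2 fell. Fibroblast markers fell in 6 of 9 cases (7 with the replicate block, median -1.35) and dendritic cell markers in 2 of 6, while 3 of 8 adipocyte markers rose. Log2 fold changes of the adipocyte markers ran from -0.30 to 2.12, and with the replicate block 3 rose and 1 fell. The summed level was 225 to 599 CPM in Vehicle and 78.6 to 161 CPM in Aldara for fibroblast markers, 16.2 to 24.3 and 14.5 to 18.7 CPM for dendritic cell markers, and 234 to 277 and 171 to 296 CPM for adipocyte markers. The part of these cell types in the levels of Fpr1, Fpr2, Saa3 and Anxa1 was not tested.

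The rest of the receptor family had few or no counts. Fpr3, the closest relative of Fpr2 on the chromosome, had 0 counts in Vehicle and 4 counts over the Aldara libraries. Fpr-rs3, Fpr-rs4, Fpr-rs6 and Fpr-rs7, members of the family known from the vomeronasal organ, had 0 counts in all 8 libraries. None of these 5 genes could be tested. Reads of close paralogs may be shared or dropped in counting, so a count of 0 does not show that a gene was absent.

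The serum amyloid A genes next to Saa3 had more counts in Vehicle than in Aldara, or none. Saa1 had 131 counts over the Vehicle libraries, of which replicate 3 held 106, and 7 over the Aldara libraries. Saa2 had 9 and 0 counts, and Saa4 had 0 in all 8 libraries. These genes were too low to test, and Saa1 and Saa2 are near-identical copies that may share reads.

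Fpr1 and Fpr2 lie next to each other on chromosome 17 (GRCm38) and are read in opposite directions. GENCODE M21 places Fpr1 at chr17:17876471-17883940 on the minus strand and Fpr2 at chr17:17887824-17893952 on the plus strand. In RefSeq 3884 bases lie between their start sites. Fpr3 shares 48 of the 1296 exon bases of Fpr2, where reads may be ambiguous. Saa3 lies at chr7:46711998-46715700 on the minus strand, beside Saa4, Saa1 and Saa2, and Anxa1 at chr19:20373428-20390944 on the minus strand. The nearest protein-coding genes that were not members of either family were not called. On the other side of Fpr1, Has1, a hyaluronan synthase, measured 5.53 ± 2.5 and 5.67 ± 1.27 CPM (adjusted p = 0.946) and Spaca6, a sperm membrane protein gene, 36.2 ± 2.32 and 43.9 ± 9.26 CPM (adjusted p = 0.231). Next to Saa3, Saal1 measured 13.9 ± 0.69 and 11.5 ± 1.55 CPM (adjusted p = 0.207).

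The sequences before the start sites of the 3 genes that were higher in Aldara are shown because these genes were high in the same libraries. They come from RefSeq (GRCm38.p6) and run 5′ to 3′ on the strand of the gene up to the start site, without bases that GENCODE places in the first exon. Capitals mark matches to any of 6 motifs, searched on both strands. They lie at chr17:17883941-17884189 on the minus strand, chr17:17887574-17887823 on the plus strand and chr7:46715701-46715926 on the minus strand.
Fpr1: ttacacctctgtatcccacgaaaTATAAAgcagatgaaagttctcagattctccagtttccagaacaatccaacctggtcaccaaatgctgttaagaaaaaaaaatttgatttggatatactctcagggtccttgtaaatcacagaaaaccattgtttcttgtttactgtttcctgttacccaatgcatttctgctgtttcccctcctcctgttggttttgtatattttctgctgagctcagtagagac
Fpr2: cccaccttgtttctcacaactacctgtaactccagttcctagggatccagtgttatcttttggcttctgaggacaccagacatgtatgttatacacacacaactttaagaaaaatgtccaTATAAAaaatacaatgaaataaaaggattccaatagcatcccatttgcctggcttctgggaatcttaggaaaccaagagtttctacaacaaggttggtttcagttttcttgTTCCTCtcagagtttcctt
Saa3: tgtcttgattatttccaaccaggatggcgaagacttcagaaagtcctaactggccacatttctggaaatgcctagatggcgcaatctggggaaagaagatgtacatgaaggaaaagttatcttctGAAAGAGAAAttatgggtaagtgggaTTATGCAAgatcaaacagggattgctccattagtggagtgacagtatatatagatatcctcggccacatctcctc

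Positions are counted back from the RefSeq start site over the 250 bases before it. The motifs were TTGCNNAA for C/EBP factors, TGANTCA for AP-1, GAGGAA for PU.1, TATAAA for the TATA box, and those of NF-kB and of the interferon response element. Saa3 held a C/EBP match from -99 to -92, a motif present in 9.56% of 32851 such windows, and an interferon response match from -125 to -116, present in 2.98%. Fpr2 held a PU.1 match from -19 to -14 (23.3% of windows) and a TATA box match from -130 to -125 (12.4%). Fpr1 held a TATA box match from -227 to -222. NF-kB (45.8% of windows) and AP-1 (6.75%) had 0 matches in these 3 windows, and no matches overlapped. The window of Anxa1, whose groups overlapped, was searched too and is not printed because its RefSeq start lies inside the gene as GENCODE places it. It held a C/EBP match from -143 to -136, a PU.1 match from -227 to -222, a TATA box match from -32 to -27 and 2 NF-kB matches. A match describes letters and is not evidence of a bound factor.

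No tested precursor of another receptor ligand was called. Of 9 listed genes besides Saa3 and Anxa1, 3 could be tested, and 0 rose and 0 fell in edgeR, with 0 at an unadjusted p under 0.05 and 0 in DESeq2. With the replicate block the counts were also 0 and 0. The shares over all tested genes were 6.98% risen and 3.86% fallen. App, the amyloid precursor, measured 1149 ± 104 and 1262 ± 44.4 CPM (adjusted p = 0.46), Prnp, the prion protein, 42 ± 6.03 and 47.6 ± 7.98 CPM (0.461), and Hebp1, a haem-binding protein, 8.37 ± 0.527 and 7.8 ± 2.12 CPM (0.797). Camp, the cathelicidin precursor, had 2 and 11 counts over the groups, and Ctsg, cathepsin G, had 0. A p that misses the threshold does not show that levels were equal.

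Receptors for other chemoattractants moved in both directions. Of 15 tested, 3 rose and 1 fell, beside 6.98% and 3.86% of all genes. With the replicate block 6 rose, C5ar1 and Ptafr among the added ones, and 2 fell, with Ccr1 added, beside 9.21% and 6.14% of all genes. Without Aldara replicate 1, 7 rose, and without Aldara replicate 4, 2 fell. The median log2 fold change was 0.03, beside 0.01 for all tested genes. Gpr18, a lipid-sensing receptor, had means of 0.129 ± 0.0568 and 2.16 ± 0.948 CPM, from 15 counts over the Vehicle and 193 over the Aldara libraries (log2 difference 3.95, SE 0.46). It passed the filter on low counts through its Aldara libraries alone, so its place among the 3 risen genes is no independent support. C3ar1, the receptor of complement fragment C3a, rose from 47.4 ± 12.1 to 199 ± 97.9 CPM (2.07, SE 0.36, adjusted p = 0.00896, and 0.0568 with no filter on low counts). C5ar2, a receptor of C5a, rose from 2.64 ± 0.652 to 6.4 ± 2.85 CPM (adjusted p = 0.0299). Leaving out Vehicle replicate 1, 2 or 4, or 1 of Aldara replicates 3 and 4, ended that call, with adjusted p up to 0.0904. Hcar2, the receptor of niacin and ketone bodies, fell from 46.3 ± 1.37 to 33.8 ± 3.69 CPM (-0.46, SE 0.09, adjusted p = 0.0119).

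Signalling genes downstream of Gi-coupled receptors rose in part. Of 27 tested, 12 rose and 0 fell in edgeR (0 falls at an unadjusted p under 0.05 and 0 in DESeq2), with a median log2 fold change of 0.77. Over all genes 6.98% rose and 3.86% fell. With the replicate block 16 genes of the list rose and 0 fell, beside 9.21% and 6.14% of all genes. The macrophage markers had a median of 1.13, with 6 of 12 risen and 11 with the replicate block. Rac2, the haematopoietic small GTPase of the oxidase and of migration, rose from 19.5 ± 2.1 to 241 ± 120 CPM (3.62, SE 0.36, adjusted p = 0.00148). Pik3r5, the p101 subunit of the kinase PI3K gamma, rose by 2.68 (SE 0.35) and Lyn, a Src-family kinase, by 1.66 (SE 0.26), both on the log2 scale. The G protein subunit Gnai2, expressed in many cell types, had a log2 fold change of 0.18 (adjusted p = 0.409).

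The phagocyte NADPH oxidase, which these receptors can activate, showed 6 of 7 tested genes risen and 0 fallen in edgeR (0 falls at an unadjusted p under 0.05 and 0 in DESeq2), with a median of 1.37, beside 6.98% risen and 3.86% fallen among all genes. Besides Rac2, Cyba, a membrane subunit, rose from 53.3 ± 4.45 to 117 ± 34.1 CPM (1.13, SE 0.18, adjusted p = 0.00627). Ncf4, a cytosolic subunit, rose by 2.01 (SE 0.34) on the log2 scale. With no filter on low counts 3 of the 7 genes rose. The replicate block gave 7 risen and 0 fallen genes, beside 9.21% and 6.14% of all genes.

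Among acute-phase genes other than Saa3, log2 fold changes ran from -0.84 to 1.57. Of 12 tested, 3 rose and 0 fell in edgeR, with 1 fall at an unadjusted p under 0.05 and 0 in DESeq2, and 5 rose with the replicate block, which added Serpina3n and Serpina3g. The shares over all genes were 6.98% risen and 3.86% fallen, or 9.21% and 6.14% with the block. Cp, a ferroxidase, rose from 265 ± 26.9 to 486 ± 43.6 CPM and Lcn2, an iron-siderophore-binding lipocalin, from 545 ± 27.2 to 953 ± 118 CPM (log2 fold changes 0.88, SE 0.11, and 0.81, SE 0.11). C3, the central complement component, rose from 108 ± 50.1 to 285 ± 106 CPM (adjusted p = 0.0375). The call ended when any library other than Vehicle replicate 1 and Aldara replicate 4 was left out (adjusted p up to 0.0974) and with no filter (0.154).

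Genes that sense serum amyloid A or regulate its transcription rose in 7 of 20 cases and fell in 0 in edgeR, with 1 fall at an unadjusted p under 0.05 and 1 in DESeq2. With the replicate block 7 rose and 1, the interleukin-1 receptor gene Il1r1, fell (adjusted p = 0.0195). Without Vehicle replicate 3, 1 fell. Among all genes 6.98% rose and 3.86% fell, or 9.21% and 6.14% with the block. Between 3 and 4 rose when 1 of Vehicle replicates 1 and 2 and Aldara replicates 2, 3 and 4 was left out. Cd36, a scavenger receptor, rose from 159 ± 7.88 to 282 ± 69.1 CPM (adjusted p = 0.00716), and Cd14, which presents endotoxin to Tlr4, reached 603 ± 108 CPM from 375 ± 15.1 CPM (adjusted p = 0.00738). Tlr4, the endotoxin receptor, rose by 0.62 (SE 0.14). It missed the threshold when Vehicle replicate 2 (adjusted p = 0.0526) or Aldara replicate 2 (0.0534) was left out. P2rx7, an ATP-gated channel, rose by 0.47 (SE 0.11). It missed the threshold when any of Vehicle replicates 1 and 2 and Aldara replicates 2, 3 and 4 was left out (highest adjusted p = 0.0789).

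Without the replicate block, relatives and partners of Anxa1 were called about as often as genes in general, of which 6.98% rose and 3.86% fell. Of 12 other annexins and S100 partners, 1 rose and 0 fell in edgeR, with 2 falls at an unadjusted p under 0.05 and 2 in DESeq2. With the replicate block 1 rose and 2, Anxa4 and S100a11, fell, beside 9.21% and 6.14% of all genes. The median was -0.03. Without Vehicle replicate 1, 1 fell. Anxa5, a phosphatidylserine-binding annexin, rose from 240 ± 12.7 to 321 ± 45.4 CPM (0.42, SE 0.11, adjusted p = 0.0337). That call was kept without Aldara replicate 1 and lost without any other single library (highest adjusted p = 0.11).

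In the lipoxin and resolvin pathway, some of whose lipid mediators are further ligands of Fpr2, 3 of 14 genes rose and 3 fell, beside 6.98% and 3.86% of all genes. The list also holds genes of leukotriene and prostaglandin synthesis. The replicate block gave 4 risen and 3 fallen genes, beside 9.21% and 6.14% of all genes. With no filter, or with Vehicle replicate 1, 2 or 4 or 1 of Aldara replicates 3 and 4 left out, 1 rose. Alox15 and Alox12, lipoxygenases of this pathway, fell from 11.9 ± 7.78 to 2.14 ± 0.654 CPM (-2.45, SE 0.48, adjusted p = 0.0138) and from 6.47 ± 2.79 to 1.93 ± 0.313 CPM (-1.73, SE 0.31, adjusted p = 0.00728). The call on Alox15 was lost without Aldara replicate 4 (adjusted p = 0.0544) and with no filter (0.0656). Lta4h, the leukotriene A4 hydrolase, fell by 0.36 on the log2 scale (SE 0.08), whereas Alox5ap, the 5-lipoxygenase activating protein, rose by 1.42 (SE 0.32) and Nr3c1, the glucocorticoid receptor, by 0.32 (SE 0.09). The other risen gene was Gpr18, which entered the test only through its Aldara libraries, as given above.

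**Figure D4:**
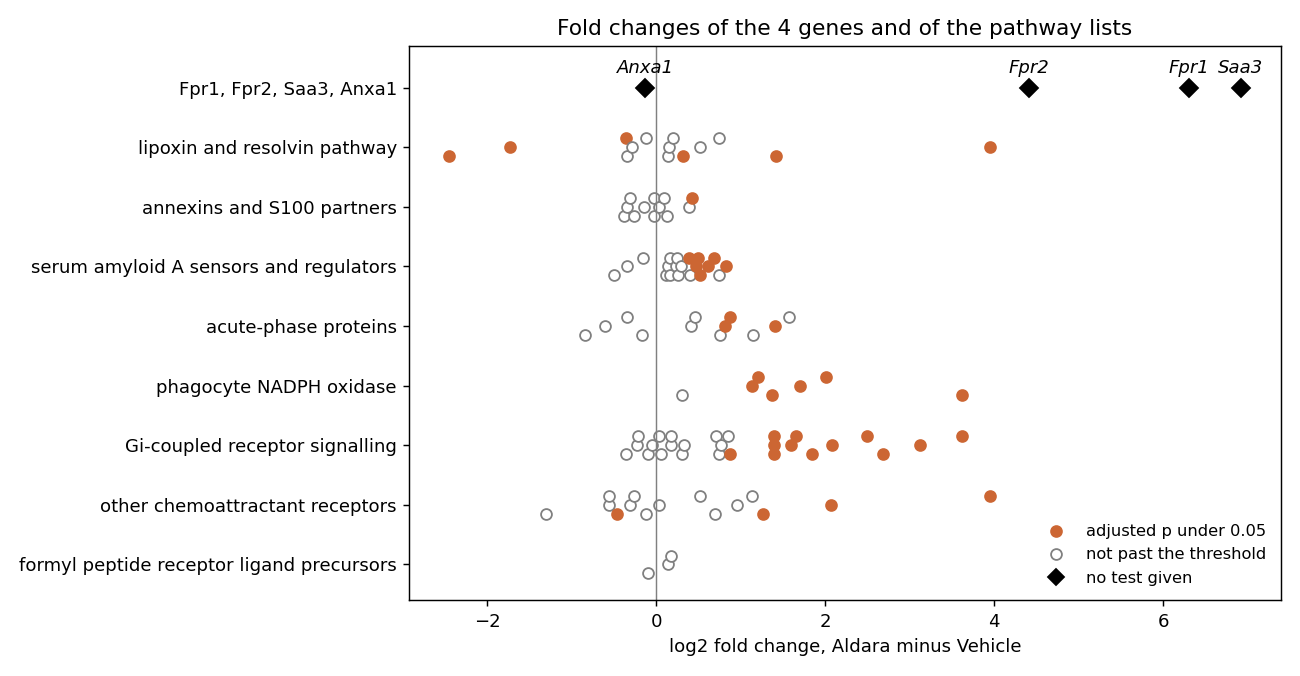
Log2 fold changes, Aldara minus Vehicle, of the tested genes of 8 pathway lists, filled where the adjusted p lay under 0.05, with the 4 genes described here as black diamonds in the top row. Saa3 at 6.92, Fpr1 at 6.3 and Fpr2 at 4.41 lie to the right of every list gene plotted, and Anxa1 lies near 0.

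The genes whose pattern over the 8 libraries was most like that of Fpr1, by Pearson correlation of log2 CPM among 11170 named genes whose higher group mean reached 5 CPM, were Slc13a3 (r = 0.997), Sirpb1a (0.996), AB124611 (0.996), Syn1 (0.992) and Adamtsl4 (0.991). For Fpr2 they included Cd300e (0.994), Dram1 (0.991), AB124611 (0.989) and Itgal (0.989). For Saa3 they were Fam234a (0.994), Git2 (0.986), Adamtsl4 (0.985), Fpr1 (0.978) and Sirpb1a (0.978). These coefficients rest largely on the step between the groups, which all 8 libraries share. For Anxa1 they were Eno1b (0.965), Tubb4b (0.955), Manba (0.955), Zdhhc18 (0.932) and Tnfaip1 (0.929).

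After the group means were taken out, Tubb4b and Eno1b were again among the closest genes of Anxa1. With log2 fold changes of -0.30, -0.34 and -0.13 for Tubb4b, Eno1b and Anxa1, both rankings rest on much the same values. The closest genes were Id2 (0.994), Tcn2 (0.991), Rnf13 (0.989), Bst1 (0.985) and Msr1 (0.984) for Fpr1. They were Plau (0.977), Rap2a (0.977), Tnip3 (0.976), P2rx4 (0.967) and Capza1 (0.963) for Fpr2. For Saa3 the closest were Prkra (0.983), Nfkbil1 (0.973), Yipf1 (0.957), Spop (0.954) and AC124513.1 (0.952), and for Anxa1 Tubb4b (0.981), Tprgl (0.976), Eno1b (0.969), Scamp1 (0.955) and Tuba4a (0.954). Between the members, the correlation of these deviations was 0.75 for Fpr1 with Fpr2, 0.44 for Fpr1 with Saa3 and -0.06 for Fpr2 with Saa3. With Anxa1 it was -0.62 for Saa3, -0.24 for Fpr1 and 0.11 for Fpr2. The closest genes have the highest of 11170 coefficients over 8 libraries, so values this high can arise from the selection alone. The points share libraries, depth and scaling, and the Vehicle deviations of Fpr1, Fpr2 and Saa3 rest on few counts.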

How the data were processed

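The deposited table holds whole-number read counts per gene, not normalised. The submitters' processing notes name the mm10 build, the aligner HISAT2 (version 2.0.5), the counter featureCounts (version 1.5.0-p3) and DESeq2. How featureCounts treated strand and multi-mapped reads was not stated in these notes. Per the labels' protocols, a SMARTer ultra-low-input kit was used, which does not mark the strand, so antisense and overlapping genes cannot be told apart. Symbols and exon lengths came from GENCODE M21, which named 52073 of 56748 identifiers.

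The deposited counts went into edgeR 4.0.16 in R 4.3.3 (filterByExpr, TMM, robust quasi-likelihood F test). Benjamini-Hochberg adjustment ran over all 16780 tested genes, with a threshold of 0.05. SEs were derived from the F statistic. At these depths 3 counts, the limit used for a count of 0, equal 0.0846 to 0.159 CPM. DESeq2 1.42.0, other scalings, no filter, a replicate block and leaving out each library were alternatives. Same-numbered libraries of the groups deviated together (correlations 0.228, 0.108, 0.167 and 0.218 for numbers 1 to 4). The labels do not say what a number marks, so the main fit left it out. The replicate block, which treats same-numbered libraries as pairs, called 1546 risen and 1030 fallen genes, beside 1171 and 647 without it. Adjusted p-values are from the main fit unless another setting is named. Shares of risen and fallen genes over all genes are those of edgeR's adjusted p-values. Counts at an unadjusted p or in DESeq2 therefore have no matching share beside them. DESeq2 called 1471 risen and 1154 fallen genes.

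Members and lists were chosen with earlier results of these data known. Named genes are the members, the rest of both families, up to 4 called genes per list by smallest p (otherwise the gene of smallest p), the 5 closest genes by correlation per member, and 8 fixed markers. Some genes that this rule names are not reported here. Cxcr2, Csf3r, Plac8, Ms4a4c, C5ar1, Ptafr, Ccr1, Serpina3n, Serpina3g, Il1r1, Anxa4, S100a11, Alox5ap, Nr3c1, Mmp9, Ltf, Camp, Ctsg, Prnp, Hebp1, Gnai2 and the neighbouring genes were named after their values were seen. On simulated counts every changed gene that was called had the right sign. With gene-wise dispersions the unchanged genes exceeded the nominal share of its calls, and with trended dispersions they did not.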

Additional observations from a re-analysis of the deposited data

Results flagged for a closer look

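In Vehicle, Saa1 was far higher in replicate 3 than in the other libraries, at 2.99 CPM against 0.257 to 0.411 CPM. In Aldara, App was higher in replicate 1, at 1328 CPM, than in the other libraries, which lay between 1231 and 1246 CPM. Of 60 groups of 4 libraries examined for a library far from the others, these 2 stood out, and chance flags about 1 in 20.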

How the results depend on the processing

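The log2 fold changes of Fpr1, Fpr2, Saa3 and Anxa1 moved by less than the spread between replicates under every alternative run (other scalings, no filter, DESeq2, the replicate block and each library left out), with ranges of 6.00 to 6.55, 4.11 to 4.64, 6.36 to 7.22 and -0.23 to 0.00 when 1 library was left out. With Csf1r alone as the reference, the ratio of Fpr1 moved to 5.27. Over all genes, fallen genes numbered 647, and 990 under upper-quartile factors, 1154 with DESeq2 and 1030 with the replicate block. Leaving out 1 library gave 629 to 1405 risen and 323 to 664 fallen genes. Chemoattractant receptors that rose numbered 6 and those that fell 2, both with DESeq2 and with the replicate block, and 2 to 7 and 1 to 2 with 1 library left out. With no filter, 3 oxidase genes and 1 lipoxin pathway gene rose. With the replicate block 5 acute-phase genes rose. Among serum amyloid A sensors and regulators 1 gene fell under upper-quartile factors, no filter, DESeq2 and the replicate block, and with 1 library left out 3 to 8 rose and 0 to 1 fell. Among annexins and partners 2 fell under upper-quartile factors, DESeq2 and the replicate block and 1 with no filter, and with 1 library left out 0 to 1 rose and 0 to 1 fell. In the lipoxin pathway 1 to 4 rose with 1 library left out. Upper-quartile factors moved the median of all genes by -0.055 on the log2 scale. The cause of these differences was not tested. Depth limits what can be said of the receptors and Saa3 in Vehicle, where single libraries held 3 to 22 counts.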
